A study of Mus musculus with 24 samples.

Results

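Collagen chains and the enzymes that hydroxylate and cross-link them were followed across 24 mouse thyroid samples on Affymetrix Mouse430A_2 arrays. The members were all genes with a symbol of the form Col, number, a, number, together with Lox, Loxl1 to Loxl4 and Plod1 to Plod3. Of 52 such genes in the mouse RefSeq annotation 43 had a probe set of their own, 36 of 44 collagen chains and 7 of 8 enzymes, among 12394 genes measured in all. Where a gene had several probe sets, the one brightest on average was read. Loxl2 was not followed, because its probe set also lists another gene, and Col6a4, Col6a5, Col6a6, Col8a2, Col23a1, Col24a1, Col27a1 and Col28a1 had no probe set of their own. The samples were 9 recurrent tumours, 5 anaplastic thyroid cancers (ATC, undifferentiated tumours), 4 papillary thyroid cancers (PTC, differentiated tumours) and 6 pools of normal glands. The study concerns anaplastic tumours of mice that resist the loss of BRAF, a kinase of the MAPK cascade, through gain of Met, a receptor, and of Hgf, which binds it. Normal pools 1 to 4 carry WT in their titles and pools 5 and 6 carry Cre. Strain, age, sex, alleles, drug exposure, the promoter driving Cre, the number of glands in a pool and whether tumours came from separate animals are not stated in the labels used here. P-values therefore measure the spread between these samples, which may in part be technical.

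Collagens are triple helices of 3 chains that cells secrete to build the extracellular matrix. Fibrillar collagens of types I, III and V, made mainly by fibroblasts, form the cables of connective tissue and of scar-like tumour stroma. Type IV collagen forms the sheet-like network of the basement membrane, which surrounds every thyroid follicle and blood vessel, while types II, IX, X and XI belong to cartilage and to its growth plate. Lysyl hydroxylases (Plod genes) modify lysines inside the cell, and lysyl oxidases (Lox and the Loxl genes) cross-link the fibres outside it. In type IV, the chains encoded by Col4a1 and Col4a2 form the common network, and those encoded by Col4a3 to Col4a6 form networks restricted to certain tissues.

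The type IV genes lie in head-to-head pairs, and their start regions are shown because the pairs differed in how they moved. No protein-coding gene lies between Col4a1 and Col4a2 on chromosome 8, between Col4a3 and Col4a4 on chromosome 1, or between Col4a5 and Col4a6 on chromosome X, so that 0 were counted in each gap. The start region of Col1a2, a fibrillar chain, and both start regions listed for the cartilage chain Col9a1 are shown for comparison. Sequences are RefSeq windows of the assembly GRCm38.p6, from 250 bases before to 50 bases after the annotated start, written 5′ to 3′ on the gene's own strand. Capitals mark 3 motifs, each searched on both strands. The first is the CCAAT box, spelled as its name. The second is the GC box, spelled GGGCGG on the gene's strand or its reverse complement on the other. The third is the TATA box, spelled TATAAA. In the windows printed no match overlapped another.
Col4a1 (chr8:11312777-11313076, minus strand): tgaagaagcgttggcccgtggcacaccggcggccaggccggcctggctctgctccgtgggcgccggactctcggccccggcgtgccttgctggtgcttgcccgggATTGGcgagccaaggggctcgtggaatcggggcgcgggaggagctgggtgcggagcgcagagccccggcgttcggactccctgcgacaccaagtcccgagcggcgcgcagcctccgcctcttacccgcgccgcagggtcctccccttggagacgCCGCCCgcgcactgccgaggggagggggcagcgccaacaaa
Col4a2 (chr8:11312555-11312854, plus strand): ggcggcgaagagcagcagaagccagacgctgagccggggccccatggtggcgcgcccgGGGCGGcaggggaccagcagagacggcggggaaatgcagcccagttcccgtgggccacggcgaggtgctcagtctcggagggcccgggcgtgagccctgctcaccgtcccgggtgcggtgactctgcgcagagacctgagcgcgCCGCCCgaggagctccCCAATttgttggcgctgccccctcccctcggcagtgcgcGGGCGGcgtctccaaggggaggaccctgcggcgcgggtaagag
Col4a4 (chr1:82586800-82587099, minus strand): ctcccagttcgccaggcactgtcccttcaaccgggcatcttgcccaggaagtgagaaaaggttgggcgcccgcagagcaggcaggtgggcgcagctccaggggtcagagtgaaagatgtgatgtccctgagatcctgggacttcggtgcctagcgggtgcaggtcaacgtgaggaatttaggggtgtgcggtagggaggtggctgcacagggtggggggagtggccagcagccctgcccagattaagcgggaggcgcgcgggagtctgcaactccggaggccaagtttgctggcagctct
Col4a5 (chrX:141475169-141475468, plus strand): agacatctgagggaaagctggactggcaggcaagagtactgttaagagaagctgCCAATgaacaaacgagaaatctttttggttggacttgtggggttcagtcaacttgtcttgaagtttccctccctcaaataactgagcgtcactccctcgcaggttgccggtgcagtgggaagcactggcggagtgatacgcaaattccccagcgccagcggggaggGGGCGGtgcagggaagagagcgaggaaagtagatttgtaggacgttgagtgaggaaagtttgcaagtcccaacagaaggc
Col4a6 (chrX:141474027-141474326, minus strand): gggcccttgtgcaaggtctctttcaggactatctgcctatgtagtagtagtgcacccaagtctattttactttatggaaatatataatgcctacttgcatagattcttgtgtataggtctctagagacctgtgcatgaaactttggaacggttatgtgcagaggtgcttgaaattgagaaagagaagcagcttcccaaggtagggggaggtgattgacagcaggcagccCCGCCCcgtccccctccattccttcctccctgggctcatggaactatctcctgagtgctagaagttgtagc
Col1a2 (chr6:4505368-4505667, plus strand): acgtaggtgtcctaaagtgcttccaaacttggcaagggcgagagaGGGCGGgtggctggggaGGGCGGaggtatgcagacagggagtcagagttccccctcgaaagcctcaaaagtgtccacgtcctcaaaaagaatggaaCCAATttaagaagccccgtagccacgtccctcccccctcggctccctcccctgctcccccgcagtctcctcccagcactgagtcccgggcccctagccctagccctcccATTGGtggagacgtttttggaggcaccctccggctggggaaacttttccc
Col9a1, upstream start (chr1:24177360-24177659, plus strand): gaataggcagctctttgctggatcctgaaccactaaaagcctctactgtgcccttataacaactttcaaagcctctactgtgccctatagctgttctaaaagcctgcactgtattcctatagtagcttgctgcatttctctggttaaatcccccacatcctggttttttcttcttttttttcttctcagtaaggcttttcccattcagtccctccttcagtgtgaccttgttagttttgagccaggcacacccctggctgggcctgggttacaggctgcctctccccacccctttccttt
Col9a1, downstream start (chr1:24194953-24195252, plus strand): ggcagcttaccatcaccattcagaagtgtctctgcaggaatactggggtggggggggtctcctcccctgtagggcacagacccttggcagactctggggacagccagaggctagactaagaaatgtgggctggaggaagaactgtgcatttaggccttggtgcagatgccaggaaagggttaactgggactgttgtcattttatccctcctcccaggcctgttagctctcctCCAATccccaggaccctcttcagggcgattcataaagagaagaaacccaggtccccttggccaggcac

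The starts of Col4a1 and Col4a2 lie 21 bases apart on opposite strands, and their windows share 78 bases. The starts of Col4a5 and Col4a6 lie 1343 bases apart, with 0 shared bases. GC content was 74.0% for Col4a1 and 73.7% for Col4a2, against 63.3% for Col4a4, 52.7% for Col4a5 and 48.3% for Col4a6. Over all 32851 windows searched the median was 52.7%. CCAAT stood in 37.4%, GGGCGG in 35.7% and TATAAA in 13.6% of those windows. Of the 43 members 30 had a window in the table. The windows of Col4a1, Col4a2 and Col4a5 each held 1 CCAAT and that of Col1a2 held 2, while those of Col4a4 and Col4a6 held 0. A match describes letters only and says nothing of a factor.

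Array medians lay between 7.38 and 7.58 on the log2 scale, and precision is set by how many arrays there are. Braf levels were 5.62 to 7.14 on 8 recurrent arrays and 11.14 on the array with the label of recurrent 2. They were 10.29 to 11.98 in ATC, 7.58 to 7.95 in PTC and 5.95 to 6.67 in normal pools, so that recurrent 2 fell among the ATC arrays. Thyroglobulin (Tg), the product of thyroid follicles, marked the tissue in PTC (13.11 to 14.24) and normal pools (14.80 to 14.96). It was lower than in any normal pool on every tumour array, and high within ATC on ATC 4 alone (13.48). Among recurrent tumours it was high on recurrent 4 (14.18) and recurrent 1 (11.31). The 3′ minus 5′ signal of Gapdh, which follows RNA integrity and labelling, was 0.36 to 1.07 on recurrent, 0.82 to 0.96 on ATC, 1.11 to 1.60 on PTC and 0.64 to 0.85 on normal arrays with JK in the title. On arrays titled with a bare number it was -0.02 to 0.17 in recurrent tumours and 0.065 to 0.15 in ATC, and on the pools titled Cre 0.64 to 0.98. Arrays with JK comprised 3 recurrent, 2 ATC, all 4 PTC and 4 normal arrays. In bulk tissue, fewer cells of a type and less RNA per cell cannot be told apart, which applies to every level below.

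Recurrent 2, 6 and 7 stood apart from the other recurrent arrays in their collagens. Recurrent 7 had the highest levels of 6 of the 7 cartilage chains. Recurrent 6 exceeded every normal pool in 8 of the 43 members and recurrent 2 in 14, against 24 to 33 on the other recurrent arrays. Of the 6 fibrillar chains measured, recurrent 2 exceeded every normal pool in 4 and recurrent 6 in 2, and every other recurrent and ATC array did so in all 6. PTC 1 exceeded every normal pool in all 6 and the other PTC arrays in 5. The share of all genes above every pool was not counted, so these counts only set one array beside another. Counts of members in recurrent tumours are therefore given with and without each of these arrays. Some of the single members whose call moved are named as well.

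Fibrillar chains and 3 lysyl oxidases rose together in ATC, while the type IV family split by gene pair. ATC had 21 of 43 members higher and 5 lower than normal pools by limma (adjusted p under 0.05 over all genes). That is 48.8% and 11.6% of the members, where 15.1% of all genes were called higher and 19.1% lower. In recurrent tumours against normal pools 17 members (39.5%) were higher and 5 (11.6%) lower, beside 14.5% and 19.3% of all genes. PTC had 10 members (23.3%) higher and 3 (6.98%) lower than normal pools, beside 6.16% and 8.03% of all genes. ATC against PTC gave 10 members (23.3%) higher and 5 (11.6%) lower, beside 7.81% and 9.35%. Between recurrent tumours and ATC 0 members were higher and 3 (6.98%) lower, beside 1.19% and 3.12% of all genes, and 0 members were higher at an unadjusted p under 0.05 in limma. With array weights and in the fit of the 2 groups alone 0 were higher as well. These comparisons share control arrays and are not independent.

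Without recurrent 2, 6 or 7 in turn, recurrent tumours had 17, 22 and 18 members higher and 5, 5 and 9 lower than normal pools, where 14.4%, 17.1% and 15.4% of all genes were higher and 18.9%, 22% and 19.7% lower. Against ATC they had 0 higher and 3, 4 and 3 lower by limma. Of all genes 2.35%, 2.0% and 1.15% were higher there and 4.46%, 4.07% and 3.39% lower. In PTC against normal pools the members higher numbered 5 without PTC 1, 6 without PTC 4 and 6 without normal pool 2, beside 4.45%, 4.2% and 4.82% of all genes. In ATC against PTC they numbered 5 without PTC 2 or PTC 3 and 6 without PTC 4, ATC 4 or ATC 5, and without PTC 2 only 3 members were lower. The share of all genes higher there was 4.57% without PTC 2, 5.04% without PTC 3, 5.7% without PTC 4, 6.45% without ATC 4 and 5.49% without ATC 5, and 6.29% were lower without PTC 2. In recurrent tumours against ATC 1 member was lower without ATC 1, 3, 4 or 5, beside 2.09%, 1.83%, 3.34% and 1.97% of all genes. The counts also differed by title series. On arrays with JK alone, ATC had 18 members higher and 7 lower than normal pools, where 14.4% and 17.2% of all genes were called. Recurrent tumours had 16 higher and 8 lower, beside 19.4% and 22.2% of all genes, and PTC 11 and 4, beside 11.8% and 13.6%. ATC had 6 higher and 6 lower than PTC there, beside 7.29% and 8.52%, and recurrent tumours 0 and 2 against ATC, beside 3.32% and 4.2%. Without JK fewer calls were made over all genes. ATC had 9 members higher and 2 lower than the 2 pools titled Cre, beside 2.21% and 3.91% of all genes, and recurrent tumours 3 and 2, beside 0.936% and 3.12%. Between recurrent tumours and ATC 0 were higher and 0 lower, beside 0.00807% and 0.323%.

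Some calls against normal pools were lost under no setting but the arrays without JK alone. In ATC these were Col4a1, Col4a3, Col4a5, Col5a1, Col6a1, Col7a1, Col11a1, Col12a1, Col13a1, Col15a1 and Col16a1 (adjusted p 0.0582 for Col15a1 to 0.265 for Col6a1). In recurrent tumours they were Col4a3, Col4a5, Col5a1, Col5a3, Col6a1, Col7a1, Col11a1, Col13a1, Col16a1 and Loxl3 (adjusted p 0.0605 for Col13a1 to 0.447 for Col6a1). Calls lost under other settings are given with each gene.

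**Figure D1:**
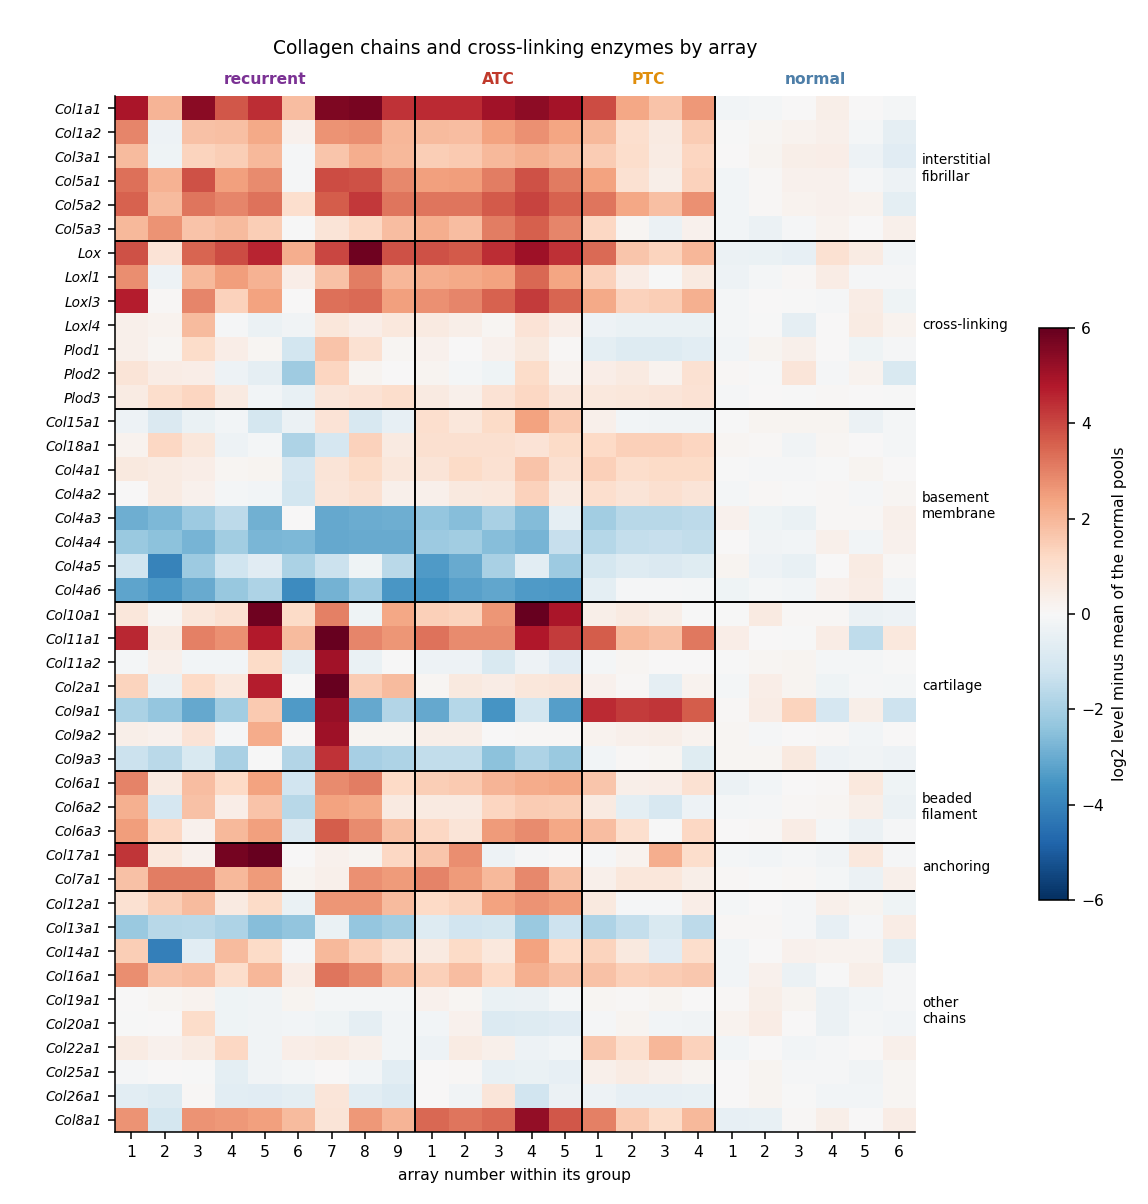
Each row is a member, grouped by class, and each column an array, with the groups in blocks; colour is the log2 level minus the mean of the 6 normal pools. Fibrillar chains and Lox are red on nearly all recurrent and ATC arrays, Col4a3 and Col4a4 blue on nearly all tumour arrays, and most cartilage chains are red on recurrent 7, with Col9a1 red on the 4 PTC arrays and Col11a1 on nearly all tumours.

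The medians of the classes differed in direction. In ATC against normal pools the median difference (log2) was 2.86 over the 6 fibrillar chains, 1.93 over the 3 type VI chains and 0.73 over the 7 enzymes. It was 0.18 over the 7 cartilage chains and -0.66 over the 8 basement membrane chains, against -0.08 over all 12394 genes. In recurrent tumours against normal pools these medians were 2.30, 1.66, 0.60, 1.01 and -1.01, beside -0.03 over all genes. In PTC against normal pools they were 1.26, 0.83, 0.58, 0.26 and -0.14, beside -0.01. The fibrillar class thus had the highest and the basement membrane class the lowest of these medians in all 3 comparisons, without a test of the difference between classes. The basement membrane class itself was split. Of its 8 chains 3 were called higher and 4 lower in ATC, beside 15.1% and 19.1% of all genes. In PTC 3 were higher and 2 lower, beside 6.16% and 8.03%. In recurrent tumours 0 were higher and 4 lower, beside 14.5% and 19.3%.

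Type I collagen is the main fibre of connective tissue, and its chain Col1a1 had the largest difference of any member in ATC against normal pools. Col1a1 stood at 9.42, 11.96 and 13.23 (lowest, median, highest, log2) in recurrent tumours, 12.01, 12.02, 12.60, 12.93 and 12.53 in ATC, 11.47, 9.85, 9.27 and 10.17 in PTC and 7.36, 7.51 and 7.88 in normal pools. Every tumour array lay above every normal pool, and every ATC array above every PTC array. Col1a1 was 29.3-fold higher in ATC than in normal pools, a log2 difference of 4.87 ± 0.57 (SE, adjusted p = 1.37e-06). A fold here is a ratio of array intensities after background correction, and it is less certain where a level lies below 6.07, the lower quartile of all genes. In recurrent tumours it was 18.7-fold higher (adjusted p = 1.23e-06) and in PTC 6.25-fold higher than in normal pools (adjusted p = 0.00474). On arrays with and without JK the ATC difference was 4.45 and 5.18, both called. Its excess in ATC over PTC, 2.23 ± 0.63 (SE, adjusted p = 0.0174), was no longer called without PTC 2 or 3 (adjusted p 0.0577 to 0.0735), nor with bare-number titles as a block (adjusted p 0.0594) and on arrays with JK alone (adjusted p 0.143).

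The partner chain Col1a2 was 11.66, 13.98 and 14.88 in recurrent tumours, 13.84, 13.81, 14.40, 14.72 and 14.34 in ATC, 13.89, 12.96, 12.50 and 13.50 in PTC and 11.44, 12.03 and 12.26 in normal pools. ATC and PTC arrays all lay above the normal pools, and recurrent 2 and 6 were the only recurrent arrays at normal levels. Col1a2 rose by 2.26 ± 0.45 (SE, adjusted p = 0.000486) in ATC and by 1.81 ± 0.39 (SE, adjusted p = 0.00107) in recurrent tumours against normal pools. A dimmer probe set of Col1a2 gave 4.04 and 3.36 for the same differences. In PTC its difference of 1.25 missed the threshold (adjusted p = 0.0886), while the dimmer probe set, at 2.44, passed it (adjusted p = 0.0134). Col3a1, the chain of type III collagen in loose stroma, was 13.90, 13.97, 14.34, 14.53 and 14.36 in ATC and 11.75, 12.50 and 12.82 in normal pools, with no overlap. In recurrent tumours it was 12.17, 14.06 and 14.61, with recurrent 2 and 6 within the pools' range. It rose by 1.81 in ATC (adjusted p = 0.000613) and by 1.35 in recurrent tumours (adjusted p = 0.00247). On JK arrays alone Col3a1 was not called in either (adjusted p = 0.0522 and 0.161), and Col1a2 likewise not (adjusted p = 0.0673 and 0.091). On arrays without JK alone the recurrent calls were lost too, for Col3a1 at an adjusted p of 0.0562 and for Col1a2 at 0.0516.

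Type V chains sit inside type I fibres and set their width. Col5a2 was 10.71, 12.94 and 13.98 in recurrent tumours, 12.93, 12.94, 13.39, 13.76 and 13.26 in ATC, 12.92, 12.06, 11.52 and 12.46 in PTC and 9.13, 9.85 and 9.98 in normal pools. All 18 tumour arrays exceeded all 6 pools. The log2 differences from normal pools were 3.0 ± 0.35 (SE, adjusted p = 1.24e-06) in recurrent tumours, 3.54 ± 0.41 (SE, adjusted p = 1.05e-06) in ATC and 2.52 ± 0.43 (SE, adjusted p = 0.000355) in PTC. Col5a1 was 10.79, 10.84, 11.41, 12.14 and 11.44 in ATC against 8.0, 8.32 and 8.58 in normal pools and rose by 3.01 (adjusted p = 0.00012). In recurrent tumours it rose by 2.79 (adjusted p = 6.12e-05), and recurrent 6 alone, at 8.22, lay within the normal range. Against PTC, Col5a1 rose by 1.74 in ATC (adjusted p = 0.0405), a call lost without ATC 3, 4 or 5 or PTC 2, 3 or 4 (adjusted p 0.0735 to 0.147). It was also lost with the title series as a block (adjusted p 0.0662), with bare-number titles as a block (adjusted p 0.0838) and on arrays with JK alone (adjusted p 0.136).

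Col5a3, the rarest chain of type V, was highest in ATC. It was 7.45, 9.18 and 10.13 in recurrent tumours, 9.61, 9.31, 10.50, 11.04 and 10.37 in ATC, 8.71, 7.57, 7.11 and 7.68 in PTC and 7.11, 7.44 and 7.77 in normal pools. All 5 ATC arrays lay above all PTC and normal arrays, and recurrent 1, 2 and 4 (9.40, 10.13 and 9.36) lay above the lowest ATC array. ATC exceeded PTC by 2.40 ± 0.42 (SE, adjusted p = 0.000353) and normal pools by 2.72 ± 0.38 (SE, adjusted p = 1.02e-05). Recurrent tumours fell below ATC by 1.20, 2.31-fold (adjusted p = 0.0489), and still exceeded normal pools by 1.51 (adjusted p = 0.00105). The difference from ATC was not called without recurrent 4, 5, 7, 8 or 9 or ATC 1, 3, 4 or 5 (adjusted p 0.0511 to 0.136), nor in the fit of the 2 groups alone (adjusted p 0.232), with the title series as a block (adjusted p 0.051), on arrays with JK alone (adjusted p 0.895) and on arrays without JK alone (adjusted p 0.0874). It was 0.11 on JK arrays and -1.98 on the others.

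**Figure D2:**
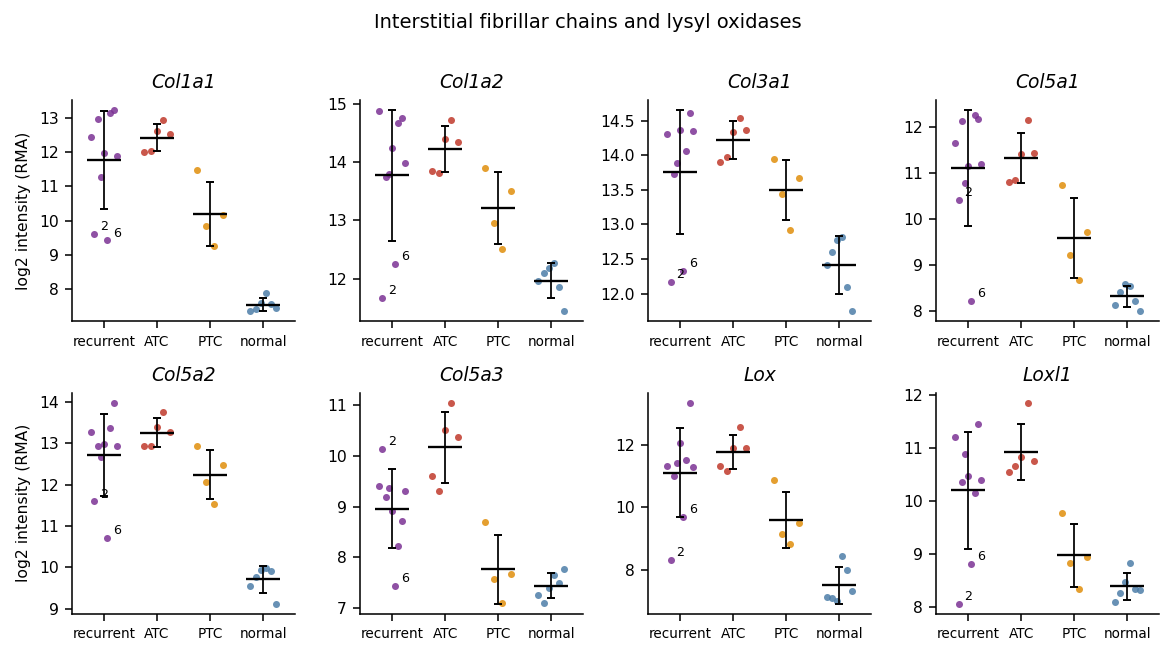
Dots are arrays, bars the group mean and whiskers the SD of log2 intensity, for the 6 fibrillar chains, Lox and Loxl1 in recurrent tumours (n = 9), ATC (n = 5), PTC (n = 4) and normal pools (n = 6); recurrent 2 and 6 are numbered. Col1a1 and Col5a2 of every tumour lie above every pool, and recurrent 2 and 6 lie lowest of their group in most panels, except that recurrent 2 is highest in Col5a3.

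Lysyl oxidase (Lox) starts the cross-linking of collagen and elastin. Lox was 8.32, 11.33 and 13.36 in recurrent tumours, 11.32, 11.17, 11.91, 12.57 and 11.90 in ATC, 10.89, 9.15, 8.83 and 9.50 in PTC and 6.99, 7.24 and 8.43 in normal pools. Only recurrent 2, at 8.32, fell within the normal range, whose upper end was pool 4. Lox rose 19.4-fold in ATC (log2 difference 4.28 ± 0.60, SE, adjusted p = 1.11e-05), 12.2-fold in recurrent tumours (log2 difference 3.61 ± 0.52, SE, adjusted p = 1.44e-05) and 4.27-fold in PTC (log2 difference 2.09 ± 0.64, SE, adjusted p = 0.029) against normal pools. The PTC call was lost without PTC 1 or 4 or normal 1, 2, 3 or 6 (adjusted p 0.0522 to 0.132) and with the mean of probe sets (adjusted p = 0.126). Against PTC, ATC was higher by 2.18 (adjusted p = 0.0249), a call lost without ATC 4 or 5 or PTC 2, 3 or 4 (adjusted p 0.0508 to 0.09). It was also lost with the title series as a block (adjusted p 0.106), with bare-number titles as a block (adjusted p 0.149) and on arrays with JK alone (adjusted p 0.187).

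Of the Lox relatives, Loxl1, which acts chiefly on elastic fibres, was 10.54, 10.65, 10.82, 11.85 and 10.75 in ATC, 9.77, 8.82, 8.34 and 8.93 in PTC and 8.09, 8.32 and 8.83 in normal pools. It rose in ATC by 2.54 ± 0.45 (SE, adjusted p = 0.000153) against normal pools and by 1.96 ± 0.50 (SE, adjusted p = 0.0087) against PTC, and the ATC arrays overlapped neither group. The call against PTC was lost on arrays with JK alone (adjusted p 0.123). In recurrent tumours (8.06, 10.39 and 11.45) it rose by 1.81 (adjusted p = 0.00106), with recurrent 2 (8.06) below the pools and recurrent 6 (8.80) within their range. That call was lost on arrays with JK alone (adjusted p = 0.0662) and without JK alone (adjusted p = 0.0839). Loxl3 was 10.03, 10.20, 10.82, 11.50 and 10.78 in ATC and 7.02, 7.22 and 7.75 in normal pools and rose 10.4-fold there (adjusted p = 0.000158). In recurrent tumours, at 7.30, 9.74 and 12.02, it rose 4.93-fold (adjusted p = 0.00161), highest on recurrent 1. Loxl4 passed the test in no comparison, with 6.14 to 8.39 in recurrent tumours, 6.64 to 7.31 in ATC, 6.09 to 6.22 in PTC and 5.95 to 6.98 in normal pools.

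The lysyl hydroxylases had small differences. Plod1, which hydroxylates helical lysines, differed by 0.24 and Plod2, which hydroxylates the lysines at the ends of the chain, by 0.22 between ATC and normal pools, neither called (adjusted p = 0.595 and 0.735). Their 95% intervals were -0.39 to 0.87 and -0.65 to 1.09. Plod3, which also attaches sugars to collagen, was 9.54, 9.30, 9.90, 10.27 and 9.74 in ATC, 9.67, 9.72, 9.74 and 9.91 in PTC and 8.96, 9.02 and 9.09 in normal pools, and the ATC and PTC arrays all lay above the pools. It rose by 0.73 in ATC (adjusted p = 0.0217) and by 0.60 in recurrent tumours (adjusted p = 0.03), and was 0.74 apart in PTC (adjusted p = 0.0564). The ATC call was lost without ATC 4 (adjusted p 0.073), on arrays with JK alone (adjusted p 0.136) and on arrays without JK alone (adjusted p 0.202). The recurrent call was lost without recurrent 2, 8 or 9 or normal 1, 2, 3 or 6 (adjusted p 0.0503 to 0.0567), and in the fit of the 2 groups alone (adjusted p 0.0729) and on arrays without JK alone (adjusted p 0.584). Recurrent 6 was lowest of its group in Plod1 (7.67), Plod2 (6.76) and Plod3 (8.58).

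Among basement membrane collagens, the common type IV chains rose in ATC and PTC, and Col4a3 and Col4a4 fell in every kind of tumour. Col4a1 was 10.54, 12.04 and 12.68 in recurrent tumours, 12.32, 12.68, 12.47, 13.25 and 12.49 in ATC, 12.96, 12.60, 12.70 and 12.68 in PTC and 11.46, 11.52 and 11.70 in normal pools. All ATC and PTC arrays exceeded all pools, and recurrent arrays overlapped the pools, with recurrent 6 at the bottom. Col4a1 rose 2.15-fold in ATC (log2 difference 1.11 ± 0.25, SE, adjusted p = 0.00144) and 2.3-fold in PTC (log2 difference 1.20 ± 0.27, SE, adjusted p = 0.00344) and differed by 0.37 ± 0.22 (SE, adjusted p = 0.198) in recurrent tumours. Without recurrent 6 that last difference was 0.54 and was called (adjusted p = 0.00655). Col4a2, whose start lies beside that of Col4a1 in the windows above, was 11.09, 11.37, 11.39, 12.14 and 11.29 in ATC, 11.76, 11.52, 11.72 and 11.55 in PTC and 10.65, 10.77 and 10.88 in normal pools. Again no ATC or PTC array overlapped the pools, and the rises were 0.69 in ATC (adjusted p = 0.0383) and 0.87 in PTC (adjusted p = 0.0331). The ATC call was lost without ATC 2, 3, 4 or 5 or normal 1, 2, 3, 4, 5 or 6 (adjusted p 0.0504 to 0.133), and with bare-number titles as a block (adjusted p 0.0852) and on arrays without JK alone (adjusted p 0.372). The PTC call was lost without PTC 1, 2, 3 or 4 or normal 1, 2, 3, 4 or 5 (adjusted p 0.05 to 0.0891).

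The restricted pair Col4a3 and Col4a4 fell in all 3 kinds of tumour. Col4a4 was 4.63, 4.96 and 5.63 in recurrent tumours, 5.55, 5.64, 5.16, 4.93 and 6.33 in ATC, 6.02, 6.29, 6.33 and 6.22 in PTC and 7.5, 7.63 and 8.02 in normal pools. No tumour array of any kind reached the lowest pool. Against normal pools Col4a4 was 6.4-fold lower in recurrent tumours (log2 difference -2.68 ± 0.19, SE, adjusted p = 4.24e-10), 4.57-fold lower in ATC (log2 difference -2.19 ± 0.21, SE, adjusted p = 1.13e-07) and 2.82-fold lower in PTC (log2 difference -1.50 ± 0.23, SE, adjusted p = 0.000105). Against PTC, Col4a4 fell by 0.69 in ATC (adjusted p = 0.0452), a call lost without ATC 1, 2, 3 or 4 or PTC 1, 2, 3 or 4 (adjusted p 0.0537 to 0.127). It was also lost in the fit of the 2 groups alone (adjusted p 0.0526), with the title series as a block (adjusted p 0.119), with bare-number titles as a block (adjusted p 0.156) and with quantile normalization (adjusted p 0.0767). Col4a3 was 4.61, 4.81 and 7.71 in recurrent tumours, 5.39, 5.13, 5.73, 5.09 and 7.14 in ATC, 5.62, 6.04, 6.04 and 6.15 in PTC and 7.29, 7.76 and 8.0 in normal pools. Recurrent 6, at 7.71, was the one tumour array within the normal range. Col4a3 was 5.14-fold lower in recurrent tumours (adjusted p = 6.36e-05), 4.01-fold lower in ATC (adjusted p = 0.00125) and 3.33-fold lower in PTC (adjusted p = 0.0153). The PTC call was lost without PTC 1 (adjusted p 0.0534).

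Of the pair on the X chromosome, Col4a6 fell in ATC and recurrent tumours and was not called in PTC. Col4a6 was 5.46, 6.22 and 7.39 in recurrent tumours, 5.64, 5.99, 6.11, 5.86 and 5.78 in ATC, 8.67, 9.18, 9.16 and 9.12 in PTC and 8.99, 9.10 and 9.70 in normal pools. PTC and normal levels overlapped, with PTC 1 (8.67) below the lowest pool. Every ATC and recurrent array lay below every PTC and normal array. Col4a6 was 8.92-fold lower in ATC than in PTC (log2 difference -3.16 ± 0.30, SE, adjusted p = 1.90e-07), 10.3-fold lower than in normal pools (log2 difference -3.36 ± 0.27, SE, adjusted p = 7.79e-09) and 7.43-fold lower in recurrent tumours than in normal pools (log2 difference -2.89 ± 0.24, SE, adjusted p = 5.67e-09). In PTC against normal pools it differed by -0.20 (95% interval -0.80 to 0.39, adjusted p = 0.755). On JK arrays alone the ATC difference from PTC was -3.22 and was called. A second probe set of Col4a6 gave -1.83 for ATC against PTC and -2.16 for ATC against normal pools. Col4a5 was 6.47, 9.18 and 10.25 in recurrent tumours, 7.08, 7.45, 8.53, 9.88 and 8.30 in ATC, 9.45, 9.71, 9.61 and 9.76 in PTC and 10.04, 10.53 and 11 in normal pools. ATC arrays spread widely, ATC 4 being the highest, and all ATC and PTC arrays lay below all pools. It fell by 2.25 in ATC (adjusted p = 0.0012) and by 1.59 in recurrent tumours (adjusted p = 0.00634), and differed by -0.87 in PTC (adjusted p = 0.325).

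Thyroid follicle markers were read beside these chains. Of 7 measured, 6 were lower in recurrent tumours, 6 in ATC and 4 in PTC than in normal pools, with 1 higher in PTC. Their mean level was 4.81 to 8.39 in recurrent tumours, 5.02 to 7.91 in ATC and 8.49 to 9.31 in PTC, against 10.21 to 10.67 in normal pools. Of 8 endothelial markers 4 were lower in recurrent tumours, 1 in ATC and 2 in PTC, with mean levels of 6.90 to 8.93, 8.19 to 8.65 and 7.73 to 7.96 in these groups, against 8.33 to 8.83 in normal pools. Of all genes 19.3%, 19.1% and 8.03% were called lower in recurrent tumours, ATC and PTC, and 6.16% higher in PTC. Log2 intensities have no zero, so no marker could be called absent. The part of either cell type in the type IV levels was not tested.

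**Figure D3:**
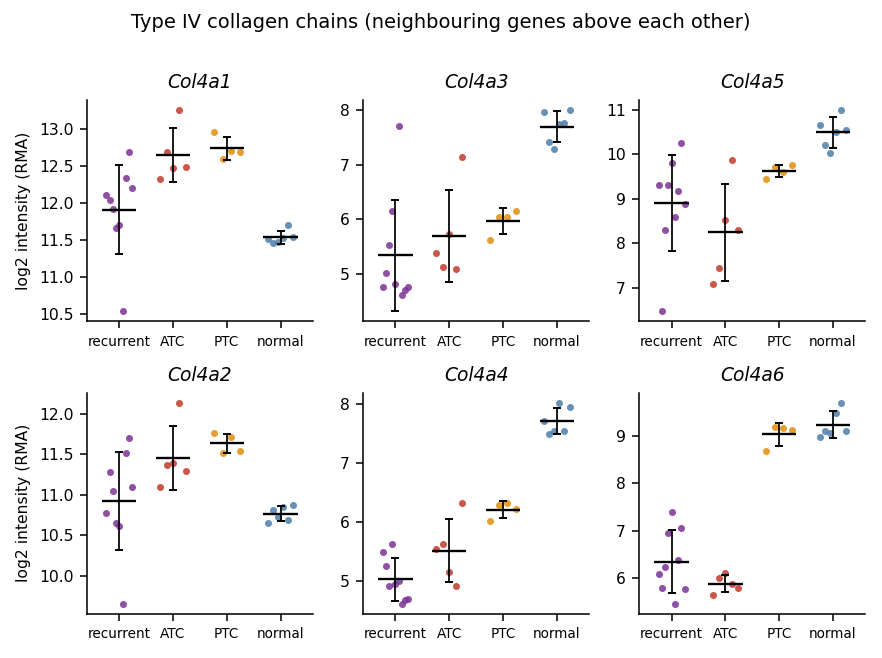
Dots are arrays, bars the mean and whiskers the SD of log2 intensity for the 6 type IV chains, neighbouring genes in 1 column, in recurrent tumours (n = 9), ATC (n = 5), PTC (n = 4) and normal pools (n = 6). Col4a1 and Col4a2 are higher in ATC and PTC than in the pools, Col4a3 and Col4a4 lower in all 3 tumour groups, and Col4a6 is low in recurrent tumours and ATC and near the normal level in PTC.

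Types XV and XVIII are basement membrane collagens that carry sugar chains. Col15a1 was 7.18, 7.84 and 9.05 in recurrent tumours, 9.26, 8.90, 9.39, 10.65 and 9.83 in ATC, 8.53, 8.07, 8.02 and 8.03 in PTC and 7.88, 8.31 and 8.42 in normal pools. Every ATC array lay above every PTC and normal array, and only recurrent 7 (9.05) reached the ATC range. It rose in ATC by 1.36 against normal pools (adjusted p = 0.000749) and by 1.45 against PTC (adjusted p = 0.00276). Recurrent tumours fell 3.44-fold below ATC (log2 difference -1.78 ± 0.26, SE, adjusted p = 0.000207), which stayed called without each array in turn and, at -2.08, was not called on arrays without JK (adjusted p = 0.0819). Without recurrent 7, recurrent tumours also fell below normal pools by 0.57 (adjusted p = 0.0397), where -0.42 with it was not called (adjusted p = 0.208). Col18a1, from which endostatin is cut, was 11.14, 11.36, 11.37 and 11.20 in PTC against 9.71, 9.98 and 10.07 in normal pools, with no overlap, and rose by 1.33 (adjusted p = 0.0319). The call was lost without PTC 1, 2, 3 or 4 or normal 2, 3 or 6 (adjusted p 0.0511 to 0.0826), and with the title series as a block (adjusted p 0.0618) and with the mean of probe sets (adjusted p 0.0513). In ATC it was 0.97 apart (adjusted p = 0.0551) and in recurrent tumours 0.09 (adjusted p = 0.869).

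Cartilage chains showed no common direction. Col2a1, the main chain of cartilage fibres, was 5.17, 6.84 and 13.47 in recurrent tumours, 5.64, 6.08, 5.94, 6.20 and 6.24 in ATC, 5.78, 5.55, 4.94 and 5.70 in PTC and 5.24, 5.41 and 5.92 in normal pools. Recurrent 7 (13.47) and recurrent 5 (10.22) stood far above all other arrays. With all arrays recurrent tumours differed from normal pools by 2.10 ± 0.84 (SE, adjusted p = 0.0557). Without recurrent 7 the difference was 1.37 (adjusted p = 0.0355), and it passed the test without recurrent 2, 4, 6 or 7 (adjusted p 0.028 to 0.0439). In ATC it differed by 0.52 from normal pools (adjusted p = 0.724) and in PTC by -0.01 (adjusted p = 0.998).

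Recurrent 7 had a set of cartilage chains at once. It read 13.22 for Col9a1, 10.25 for Col9a2 and 12.33 for Col9a3, the chains of type IX on the fibre surface, 13.32 for Col11a1 and 10.45 for Col11a2. The next highest recurrent array, recurrent 5, read 9.55, 7.40, 7.99, 9.85 and 6.57. Of the non-collagen cartilage markers, most were highest on the same 2 arrays, with Acan, Matn1 and Chad as exceptions. Snorc was 12.03 on recurrent 7 and 8.06 on recurrent 5, and Matn3 9.68 and 7.77. On the other recurrent arrays they reached 5.62 and 5.39 at most. Aggrecan (Acan) was 12.78 on recurrent 7 and 10.43 on recurrent 5, and recurrent 1 (10.64) was as high as the second. Over 8 cartilage markers the mean level was 9.78 on recurrent 7 and 8.86 on recurrent 5, and 5.02 to 6.38 on the other recurrent, 5.40 to 6.05 on ATC, 5.37 to 5.98 on PTC and 4.82 to 5.16 on normal arrays. Matn1, a marker of the list, was at 3.26 on recurrent 7 and 6.68 on recurrent 5, against 3.23 to 3.42 in normal pools. Chad, which codes for chondroadherin, was 11.51 on recurrent 5 and 8.19 on recurrent 7, below recurrent 9 (8.42) and recurrent 4 (8.32). The part of cartilage tissue in these levels was not tested.

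Col9a1 was the one cartilage chain called in PTC. It was 4.61, 5.91 and 13.22 in recurrent tumours, 4.91, 6.29, 4.47, 6.91 and 4.67 in ATC, 12.47, 12.20, 12.27 and 11.64 in PTC and 6.77, 8.20 and 9.35 in normal pools. All 4 PTC arrays lay above every ATC and normal array, and among recurrent tumours only number 7 was higher. PTC exceeded normal pools 17.8-fold (log2 difference 4.15 ± 1.17, SE, adjusted p = 0.0187), a call lost without PTC 1 or 3 (adjusted p 0.0506 to 0.0522) and with the mean of probe sets (adjusted p = 0.0522). Against PTC, Col9a1 fell by 6.69 in ATC (adjusted p = 0.000529). Against normal pools Col9a1 differed by -2.54 in ATC and was not called. ATC 1, 3 and 5 lay below 6.07 on the log2 scale, the lower quartile of all genes. The other probe set of Col9a1, dimmer, differed by 1.29 in PTC against normal pools (adjusted p = 0.302) and by -1.96 in ATC against PTC (adjusted p = 0.0808). On JK arrays the PTC difference from normal pools was 3.94 (adjusted p = 0.0001). The chains that join Col9a1 in type IX were not called in PTC, where Col9a2 differed by 0.26 and Col9a3 by -0.17 (adjusted p = 0.885 and 0.946). In recurrent tumours Col9a1 differed from normal pools by -1.21 (adjusted p = 0.357), and without recurrent 7 by -2.01 (adjusted p = 0.0129). Col9a3 differed there by -1.42 without recurrent 7 (adjusted p = 0.00028) and by -0.78 with it (adjusted p = 0.385). In ATC Col9a3 was 5.56 to 6.55, below every normal pool (7.70 to 8.58), and was not called.

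Col11a1, a chain of cartilage fibres also made by activated fibroblasts, rose in ATC and recurrent tumours. It was 5.62, 8.03 and 13.32 in recurrent tumours, 8.35, 7.94, 7.91, 9.91 and 9.29 in ATC, 8.72, 7.06, 6.83 and 8.26 in PTC and 3.56, 5.32 and 5.72 in normal pools. All ATC and PTC arrays exceeded all pools, and recurrent 2, the lowest tumour, lay within the normal range. Col11a1 rose by 3.59 ± 0.88 (SE, adjusted p = 0.00287) in ATC and by 3.47 ± 0.76 (SE, adjusted p = 0.0012) in recurrent tumours, and differed by 2.63 in PTC (adjusted p = 0.0643). Without recurrent 7 the recurrent difference was 2.88 and stayed called (adjusted p = 0.00031). Col10a1, the chain of hypertrophic cartilage, was 4.38, 5.59 and 10.50 in recurrent tumours, 6.10, 6.01, 7.30, 11.92 and 9.58 in ATC, 5.0, 5.22, 5.0 and 4.63 in PTC and 4.30, 4.68 and 5.20 in normal pools. Within ATC it was highest on ATC 4 and 5, and among recurrent tumours on recurrent 5 (10.50). Col10a1 rose by 3.52 ± 0.95 (SE, adjusted p = 0.00602) in ATC against normal pools and by 3.22 ± 1.05 (SE, adjusted p = 0.0371) against PTC, the second call being lost without ATC 4 or 5 or PTC 1, 2, 3 or 4 (adjusted p 0.0696 to 0.111). It was also lost with the title series as a block (adjusted p 0.155) and with bare-number titles as a block (adjusted p 0.241), and the call against normal pools with bare-number titles as a block (adjusted p 0.0801) and on arrays without JK alone (adjusted p 0.0963). On arrays with and without JK that difference was 1.23 and 5.27, the first called (adjusted p = 0.00113).

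**Figure D4:**
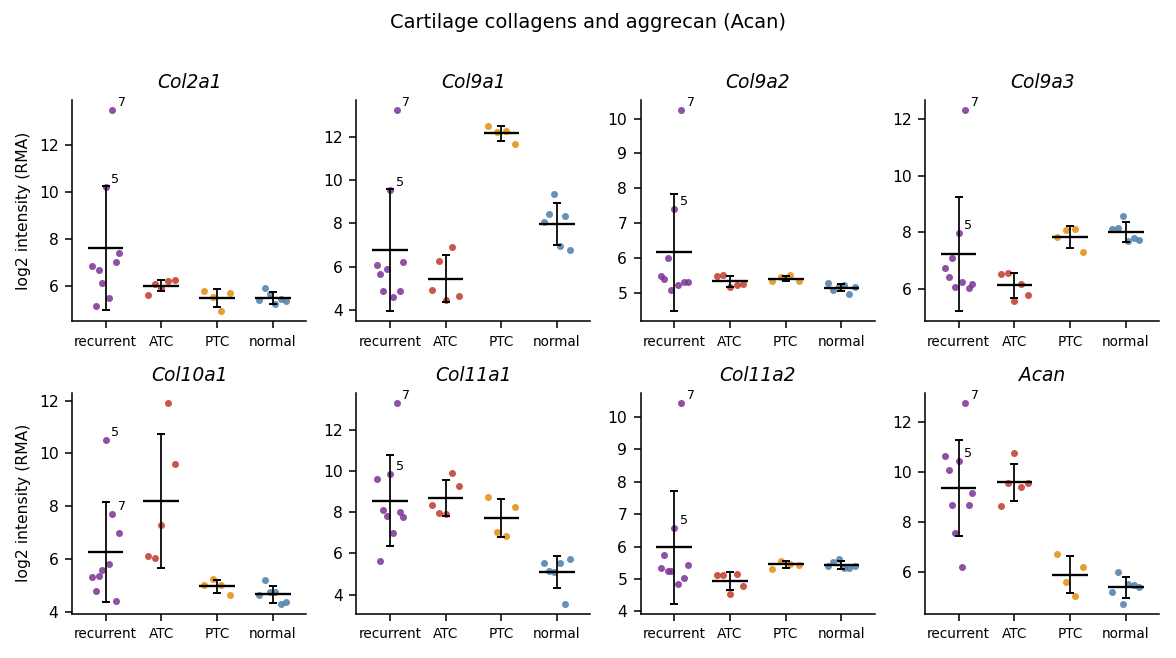
Dots are arrays, bars the mean and whiskers the SD of log2 intensity for the 7 cartilage chains and aggrecan in recurrent tumours (n = 9), ATC (n = 5), PTC (n = 4) and normal pools (n = 6); recurrent 5 and 7 are numbered. Recurrent 7 is highest in every panel but Col10a1, where ATC 4 is, and Col9a1 is high in all 4 PTC arrays.

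Type VI collagen, whose beaded filaments surround cells, rose through 2 of its 3 measured chains. Col6a1 was 8.85, 11.84 and 13.08 in recurrent tumours, 11.48, 11.57, 12.04, 12.23 and 12.30 in ATC, 11.65, 10.36, 10.38 and 10.90 in PTC and 9.65, 9.93 and 10.63 in normal pools. All ATC arrays and 7 recurrent arrays lay above every pool, recurrent 2 lay within the pools' range and recurrent 6 below it. It rose by 1.93 in ATC (adjusted p = 0.00768) and by 1.66 in recurrent tumours (adjusted p = 0.00866). Col6a3 rose by 1.94 and 1.76 in the same comparisons (adjusted p = 0.0124 and 0.00979). The ATC call of Col6a3 was lost with bare-number titles as a block (adjusted p 0.103), on arrays with JK alone (adjusted p 0.255) and on arrays without JK alone (adjusted p 0.135). The recurrent call was lost with bare-number titles as a block (adjusted p 0.152), on arrays with JK alone (adjusted p 0.0651) and on arrays without JK alone (adjusted p 0.22). Col6a2 differed by 1.07 and 0.95 (adjusted p = 0.16 and 0.152), and without recurrent 6 the second, at 1.28, was called (adjusted p = 0.0168).

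Col7a1, the anchoring fibril beneath epithelia, was 7.23, 9.62 and 10.14 in recurrent tumours, 10.06, 9.63, 9.01, 9.94 and 8.85 in ATC, 7.39, 7.75, 7.77 and 7.44 in PTC and 6.75, 7.11 and 7.38 in normal pools. Each ATC array lay above all PTC and normal arrays, and recurrent 6 and 7 were the low recurrent ones. Col7a1 rose by 2.42 ± 0.43 (SE, adjusted p = 0.000169) in ATC against normal pools, by 1.91 ± 0.48 (SE, adjusted p = 0.00791) against PTC and by 2.02 ± 0.38 (SE, adjusted p = 0.000257) in recurrent tumours against normal pools. Col17a1, of the hemidesmosome that ties epithelial cells to the basement membrane, was called in no comparison with all arrays. It was high on recurrent 5 (10.63), recurrent 4 (10.33) and recurrent 1 (8.84), with 4.28 to 7.36 in ATC, 4.50 to 6.76 in PTC and 4.36 to 5.23 in normal pools. Its recurrent difference from normal pools, 2.07 ± 0.88 (SE, adjusted p = 0.0742), was called without recurrent 6 at 2.32 (adjusted p = 0.0411).

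Of the 10 remaining chains, 3 were higher and 1 lower in ATC than in normal pools, beside 15.1% and 19.1% of all genes. Col8a1, a network-forming chain of vessel walls, was 6.42, 9.95 and 10.21 in recurrent tumours, 10.96, 10.72, 10.90, 12.76 and 11.23 in ATC, 10.53, 9.05, 8.60 and 9.47 in PTC and 7.03, 7.55 and 7.95 in normal pools. Every ATC array lay above every array of the other 3 groups, and recurrent 2 lay below every pool. It rose 14.1-fold in ATC (adjusted p = 1.61e-05), 3.63-fold in recurrent tumours (adjusted p = 0.00443) and 3.76-fold in PTC (adjusted p = 0.0307) against normal pools. Recurrent tumours fell 3.88-fold below ATC (log2 difference -1.95 ± 0.51, SE, adjusted p = 0.0286), a call lost without ATC 1, 3, 4 or 5 (adjusted p 0.0502 to 0.0834), and in the fit of the 2 groups alone (adjusted p 0.188), on arrays with JK alone (adjusted p 0.253) and on arrays without JK alone (adjusted p 0.146). The recurrent call against normal pools was lost with bare-number titles as a block (adjusted p 0.0637), on arrays with JK alone (adjusted p 0.131) and on arrays without JK alone (adjusted p 0.11). The PTC call was lost without PTC 1, 2 or 4 or normal 1 or 2 (adjusted p 0.0526 to 0.133), and on arrays with JK alone (adjusted p 0.0593) and with the mean of probe sets (adjusted p 0.128). The call of the excess of ATC over PTC, 1.90 (adjusted p = 0.0339), was lost without ATC 4 or 5 or PTC 2, 3 or 4 (adjusted p 0.0596 to 0.121), and with the title series as a block (adjusted p 0.118), with bare-number titles as a block (adjusted p 0.142) and on arrays with JK alone (adjusted p 0.331).

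Col12a1 and Col16a1 decorate fibres, and both rose. Col12a1 was 8.78, 8.95, 10.01, 10.31 and 10.14 in ATC, 8.21, 7.52, 7.55 and 8.0 in PTC and 7.33, 7.58 and 7.93 in normal pools, and rose by 2.03 in ATC against normal pools (adjusted p = 0.000696) and by 1.82 against PTC (adjusted p = 0.00907). In recurrent tumours (7.20, 9.10 and 10.26) it rose by 1.42 (adjusted p = 0.00447), with recurrent 6 below the pools. That call was lost with bare-number titles as a block (adjusted p 0.0568) and on arrays without JK alone (adjusted p 0.293). Col16a1 rose against normal pools in recurrent tumours by 1.98 (adjusted p = 2.94e-05), in ATC by 1.68 (adjusted p = 0.00068) and in PTC by 1.58 (adjusted p = 0.00536). Its levels were 7.68, 9.19 and 10.44 in recurrent tumours, 8.68, 9.11, 8.47, 9.37 and 9.02 in ATC, 8.99, 8.67, 8.77 and 8.87 in PTC and 6.88, 7.22 and 7.60 in normal pools. Every tumour array lay above every pool.

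Col13a1, a membrane-spanning chain, was the one member outside type IV called lower than normal pools with all arrays. It was 5.43, 5.87 and 7.60 in recurrent tumours, 7.19, 6.82, 6.91, 5.75 and 6.72 in ATC, 6.14, 6.57, 7.07 and 6.39 in PTC and 7.47, 7.99 and 8.44 in normal pools. Only recurrent 7 reached the pools' range. The fall was 3.74-fold in recurrent tumours (adjusted p = 1.18e-05), 2.46-fold in ATC (adjusted p = 0.00227) and 2.71-fold in PTC (adjusted p = 0.00448). Col22a1, a chain of tissue junctions, stood out in PTC, at 6.42, 5.81, 6.79 and 6.18 against 4.64, 4.77 and 5.09 in normal pools and 4.50, 5.27, 5.11, 4.48 and 4.65 in ATC. Its levels in ATC and the pools all lay below 6.07. It was higher in PTC than in normal pools by 1.51 (adjusted p = 0.00013), and ATC differed from PTC by -1.50 (adjusted p = 0.000166). Col25a1, another membrane-spanning chain, fell by 0.59 in ATC against PTC (adjusted p = 0.0115), a call lost without PTC 2 (adjusted p 0.0517), with bare-number titles as a block (adjusted p 0.0731) and on arrays with JK alone (adjusted p 0.156).

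In all 30 of the 43 members passed the test in at least 1 comparison and 13 in none. The share of all genes that passed in at least 1 comparison was not counted, so 30 is a tally only. In ATC against normal pools 15.1% of all genes were called higher and 19.1% lower. The 13 were Loxl4, Plod1, Plod2, Col2a1, Col9a2, Col9a3, Col11a2, Col6a2, Col17a1, Col14a1, Col19a1, Col20a1 and Col26a1. Of these, Col19a1, Col20a1 and Col26a1 ranged only from 4.21 to 7.26 over all arrays, and 9 members had a mean below 6.07, the lower quartile of all genes. Col14a1, a fibre-bound chain of mature stroma, was 4.21, 9.46 and 10.25 in recurrent tumours, 8.88, 9.46, 8.95, 10.74 and 9.52 in ATC, 9.67, 8.91, 7.66 and 9.36 in PTC and 7.75, 8.44 and 8.60 in normal pools, with recurrent 2 at the bottom.

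**Figure D5:**
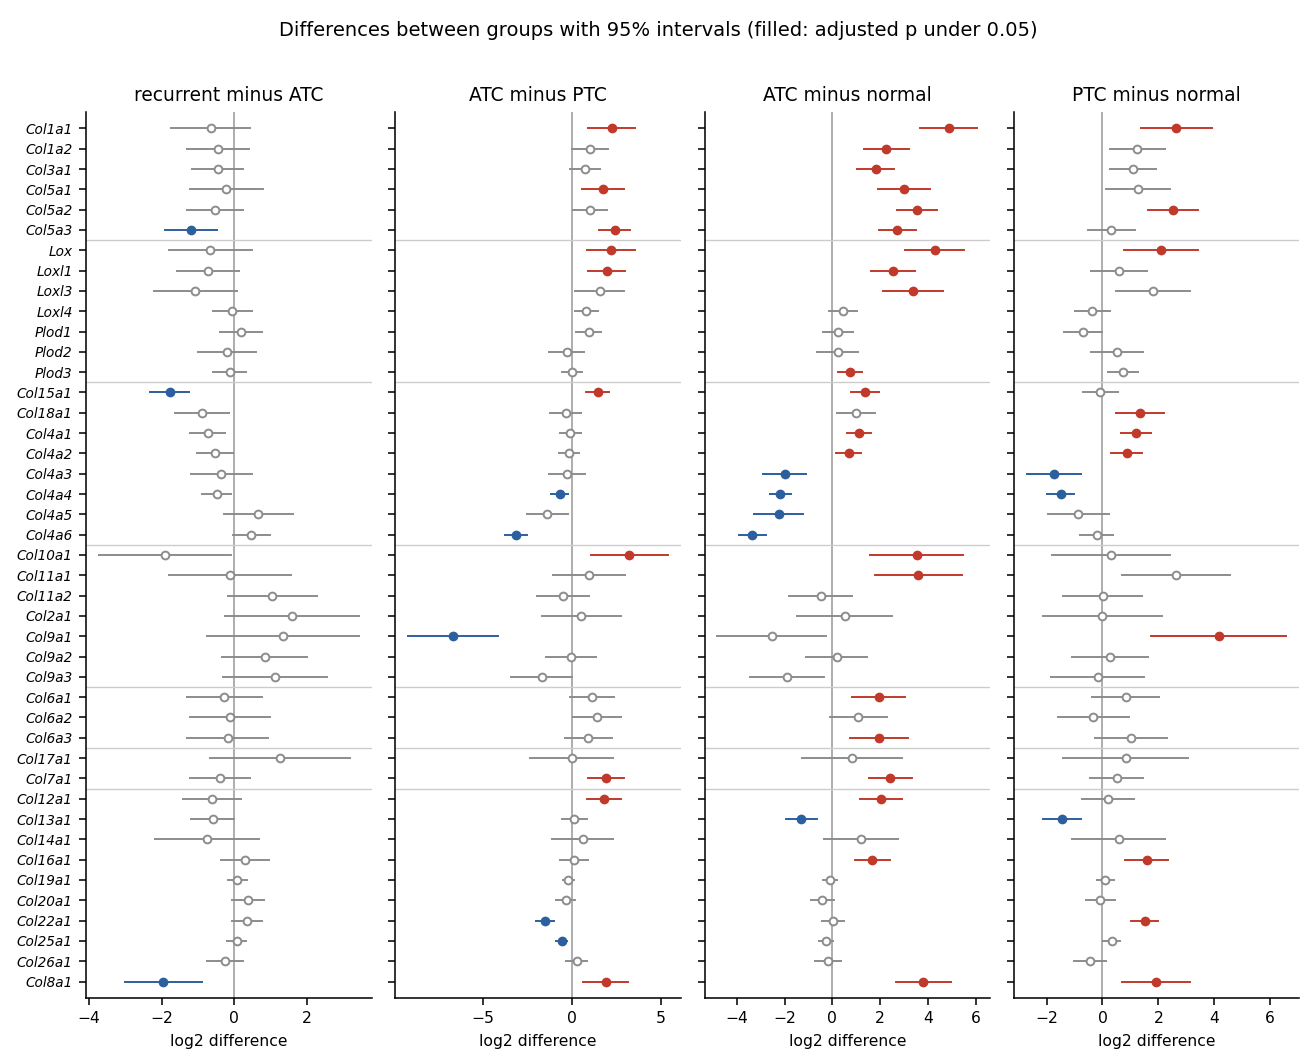
Points are log2 differences between group means and lines their 95% intervals for the 43 members by class, for recurrent tumours minus ATC, ATC minus PTC, ATC minus normal pools and PTC minus normal pools; filled red and blue points passed an adjusted p of 0.05 upwards and downwards. The 6 fibrillar chains are all filled red in ATC minus normal pools, and in recurrent tumours minus ATC only Col5a3, Col15a1 and Col8a1 are filled, all downwards.

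Among the recurrent tumours, levels of a few members were compared pairwise over the 9 arrays. Over 6 pairs, with adjustment over them, Col4a1 and Col4a2 had Pearson's r = 0.958 (exact permutation p = 0.00022, adjusted 0.00132) and Spearman's rho = 0.900 (exact permutation p = 0.00203, adjusted 0.0122). Without recurrent 6 and 8, the 2 farthest from the median, r was 0.810 (exact permutation p = 0.0321). Col1a1 and Col1a2 had r = 0.906 (exact permutation p = 0.00316, adjusted 0.00949) and rho = 0.733 (exact permutation p = 0.0311, adjusted 0.0622). Without recurrent 2 and 6 that r was 0.533 (exact permutation p = 0.201), so it rested on those arrays. Col1a1 with Col3a1, Lox and Col4a1 had r = 0.867, 0.816 and 0.712 (exact permutation p = 0.0110, 0.00803 and 0.0239, adjusted 0.0165, 0.0161 and 0.0287). Their rho was 0.617, 0.683 and 0.733 (exact permutation p = 0.0857, 0.0503 and 0.0311, adjusted 0.0857, 0.0707 and 0.0622). Without the same 2 arrays r was 0.130, 0.336 and 0.729, none past the threshold (exact permutation p = 0.776, 0.492 and 0.0655). Col1a1 and Col2a1 had r = 0.565 and rho = 0.667, neither past it (exact permutation p = 0.0865 and 0.0589, adjusted 0.0865 and 0.0707), and r = 0.330 without those arrays (exact permutation p = 0.485). On the 6 arrays titled with a bare number, r of the pairs Col1a1 and Col1a2, Col1a1 and Col3a1, Col4a1 and Col4a2, Col1a1 and Lox, Col1a1 and Col4a1, and Col1a1 and Col2a1 was 0.984, 0.878, 0.989, 0.853, 0.960 and 0.625 (exact permutation p = 0.00139, 0.0403, 0.00278, 0.0458, 0.00556 and 0.178). The 3 recurrent arrays with JK are too few for a value.

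Of 8 fibroblast markers measured, 2 were higher in recurrent tumours and 3 in ATC than in normal pools. Their mean level was 8.78 to 11.40 in recurrent tumours, 10.57 to 11.65 in ATC, 9.69 to 10.76 in PTC and 9.93 to 10.27 in normal pools. Recurrent 2, 6, 7 and 3 stood at 8.78, 9.34, 9.82 and 9.92, below the lowest pool. Skeletal muscle markers, 6 measured, ranged from 5.52 on recurrent 2 to 14.39 on recurrent 4, with 8.70 to 12.86 in ATC, 9.72 to 11.75 in PTC and 9.80 to 12.66 in normal pools. Of 7 smooth muscle and pericyte markers, 2 were higher in ATC, 1 lower in recurrent tumours and 1 lower in PTC. Their means were 6.77 to 10.27 in recurrent tumours, 9.14 to 10.31 in ATC and 8.33 to 8.79 in PTC, against 8.43 to 9.07 in normal pools. Of 5 macrophage markers 3 were higher in recurrent tumours, 4 in ATC and 1 in PTC, and of 5 adipocyte markers 5, 5 and 4 were lower in these groups. Of all genes 14.5%, 15.1% and 6.16% were called higher in recurrent tumours, ATC and PTC, and 19.3%, 19.1% and 8.03% lower. The part of these cell types in the collagen levels was not tested.

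Other genes that make, process or bind collagen were read from 6 lists with 60 of 72 genes measured. In ATC against normal pools 27 were higher and 3 lower, in recurrent tumours 23 and 7, and in PTC 9 and 1. In ATC against PTC 15 were higher and 1 lower, and in recurrent tumours against ATC 0 higher and 9 lower by limma (3 higher at an unadjusted p under 0.05). The share of genes called in each comparison is given above. Their median difference was 0.72, 0.56 and 0.27 in ATC, recurrent tumours and PTC against normal pools, 0.37 in ATC against PTC and -0.07 in recurrent tumours against ATC.

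Procollagen folding, 15 genes measured, had 8 higher and 1 lower in recurrent tumours, 7 and 1 in ATC, and 3 higher in PTC, against normal pools. The shares of all genes called higher and lower were 14.5% and 19.3% in recurrent tumours and 15.1% and 19.1% in ATC. In PTC 6.16% were called higher. Serpinh1, the chaperone of the collagen helix, was 11.15, 10.99, 11.39, 12.66 and 11.23 in ATC, 11.50, 10.87, 10.48 and 11.36 in PTC and 8.99, 9.41 and 10.11 in normal pools. It rose by 2.04 in ATC, 1.97 in recurrent tumours and 1.61 in PTC (adjusted p = 0.002, 0.00081 and 0.0359). P3h3, a prolyl hydroxylase, rose by 1.83 in ATC and 1.77 in recurrent tumours (adjusted p = 0.00112 and 0.000441). Creb3l1, a transcription factor of secretory stress, rose by 1.75 in PTC (adjusted p = 0.00961).

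Proteases trim the ends of procollagen so that fibres can form. Tll1 was 4.13, 6.04 and 8.08 in recurrent tumours, 8.36, 7.77, 8.95, 8.85 and 10.08 in ATC, 5.97, 5.89, 6.01 and 6.52 in PTC and 4.43, 5.12 and 5.53 in normal pools. Every ATC array lay above every PTC and normal array, and recurrent 9 alone, at 8.08, reached the ATC range. It rose by 3.72 ± 0.50 (SE, adjusted p = 7.15e-06) in ATC against normal pools and fell by 2.75 in recurrent tumours against ATC (adjusted p = 0.000932). Bmp1, its relative and the main C-proteinase, rose by 2.32 in ATC and by 1.09 in recurrent tumours against normal pools (adjusted p = 1.54e-05 and 0.00556), and fell by 1.23 in recurrent tumours against ATC (adjusted p = 0.0229). Pcolce, which speeds that cleavage, rose by 1.86 in recurrent tumours (adjusted p = 0.00248).

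Among 10 fibril partners, 7 were higher in ATC, 5 in recurrent tumours and 5 in PTC than in normal pools. The shares of all genes called higher there were 15.1%, 14.5% and 6.16%. Fmod, fibromodulin of the fibre surface, was 9.81, 10.81, 11.02, 12.51 and 11.35 in ATC, 11.82, 10.76, 10.31 and 11.37 in PTC and 4.39, 5.08 and 7.36 in normal pools, and rose by 5.70 ± 0.85 (SE, adjusted p = 2.37e-05) in ATC and 5.67 ± 0.91 (SE, adjusted p = 0.000186) in PTC. In recurrent tumours (4.88, 8.89 and 11.80) it rose by 3.62 (adjusted p = 0.000634). Thbs2, a matricellular protein, rose by 4.35 in ATC and 3.22 in recurrent tumours (adjusted p = 1.32e-06 and 8.69e-06). Tnc, tenascin, rose by 2.84 in ATC against PTC (adjusted p = 0.00604) and Fn1, fibronectin, by 2.57 in PTC against normal pools (adjusted p = 0.000257).

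Basement membrane partners, 13 measured, had 3 higher and 4 lower in recurrent tumours, 5 and 1 in ATC and 1 lower in PTC, against normal pools. The shares of all genes called higher and lower were 14.5% and 19.3% in recurrent tumours and 15.1% and 19.1% in ATC. In PTC 8.03% were called lower. Lama3 and Lamb3 are chains of the laminin of epithelial basement membranes. Lamb3 was 6.19, 7.09 and 9.88 in recurrent tumours, 12.58, 11.33, 11.92, 9.76 and 11.16 in ATC and 9.82, 10.12 and 11.02 in normal pools. It fell by 3.77 in recurrent tumours against ATC and by 2.65 against normal pools (adjusted p = 0.000102 and 0.000257), and recurrent 4 (9.88) overlapped the lowest ATC array. Lama3 fell by 4.13 in recurrent tumours against ATC (adjusted p = 0.00383) and rose by 3.71 in ATC against normal pools (adjusted p = 0.00235). Nid1, which links laminin to type IV collagen, rose by 1.46 in ATC (adjusted p = 0.000642), and Nid2 fell by 1.71 in PTC (adjusted p = 0.041).

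Of 12 cartilage partners, 3 were higher and 1 lower in ATC and likewise in recurrent tumours, and 1 was higher in PTC. The shares of all genes called higher and lower were 15.1% and 19.1% in ATC and 14.5% and 19.3% in recurrent tumours. In PTC 6.16% were called higher. Acan was 6.19, 9.17 and 12.78 in recurrent tumours, 8.64, 9.57, 10.74, 9.39 and 9.57 in ATC, 6.72, 5.60, 5.0 and 6.17 in PTC and 4.72, 5.42 and 5.97 in normal pools. Every ATC and recurrent array lay above every pool. It rose by 4.22 ± 0.75 (SE, adjusted p = 0.000152) in ATC and 3.99 ± 0.65 (SE, adjusted p = 6.16e-05) in recurrent tumours against normal pools, and by 3.71 in ATC against PTC (adjusted p = 0.0033). Comp, a fibre-assembly protein, rose by 4.64 in PTC (adjusted p = 0.00143) and by 2.74 in recurrent tumours (adjusted p = 0.00728). Of 6 collagen receptors, 3 were higher in ATC, and 2 higher and 1 lower in recurrent tumours, beside the same shares of all genes. Mrc2, which takes up collagen for breakdown, rose by 2.54 and 2.47 (adjusted p = 0.000328 and 0.000105), and Itgb1, the common integrin chain, by 2.12 in ATC (adjusted p = 4.20e-08). Ddr1, a kinase receptor of epithelial cells that binds collagen, fell by 1.81 in recurrent tumours against normal pools (adjusted p = 0.00902). Against ATC, 2 receptors were lower and 0 higher in recurrent tumours by limma, beside 3.12% and 1.19% of all genes. The 2 lower were Itga2, by 1.65, and Itgb1, by 1.04 (adjusted p = 0.00115 and 0.000979). The mean of Itga2 in recurrent tumours, 5.28, lay below 6.07, the lower quartile of all genes.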

How the data were processed

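RNA was isolated with a spin kit and labelled for Affymetrix Mouse430A_2 arrays by the maker's protocol, per the labels' protocols. The deposited values are log2 expression levels for 22690 probe sets on 24 arrays, and the submitters' processing notes name RMA and Partek; no version or setting is stated there. RMA subtracts background and equalises the distributions of the arrays, so that differences are relative to the other genes of an array. No scanner files were used.

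Gene names came from the platform annotation of the probe sets, with symbols updated by gene ID for 20364 of them and kept for 29. Of the probe sets 20393 had 1 symbol, 691 several and 1606 none, and the last 2 kinds were left out. The brightest probe set over all arrays stood for a gene. This gave 12394 genes. Of the members 22 had more than 1 probe set. The groups came from the tissue label. A linear model with 4 group means over all 24 arrays was fitted in limma 3.58.1 (R 4.3.3) with empirical Bayes variances. P-values were adjusted by Benjamini-Hochberg over all genes in each of 5 comparisons, and an adjusted p under 0.05 was called. The procedure was tested on simulated data. Of 276 pairs of arrays 0 held identical values, with a highest correlation of 0.993. Replicates were numbered in record order, and the numbers pair no samples. Correlations within recurrent tumours used exact two-sided permutation tests in SciPy 1.17.1.

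Alternatives were the fit of 2 groups alone, a block by title series or by bare-number titles, each title series alone, the mean of a gene's probe sets, leaving out genes below the lower quartile of mean level, quantile normalization again, array weights, and leaving out each array. Genes outside the members were named as the 2 largest called differences of each list and comparison, some of which are given. The members and lists were chosen with earlier results of these data known.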

Additional observations from a re-analysis of the deposited data

Results flagged for a closer look

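Dixon's 95% critical value was applied to 172 sets of values (43 members in 4 groups). In 21 sets 1 array was set apart from the others of its group by more than that value. Chance gives about 1 in 20 for independent sets of normally distributed values. The sets share arrays, so 21 cannot be weighed against that rate. Recurrent 7 held 5 of the 21, namely Col11a2 at 10.45, Col9a2 at 10.25, Col9a3 at 12.33, Col15a1 at 9.05 and Col13a1 at 7.6. Each was the highest of the recurrent arrays. Recurrent 6 held 3, with Col5a1 at 8.22 and Col4a1 at 10.54 as the lowest and Col4a3 at 7.71 as the highest. Recurrent 3 was highest for Loxl4 at 8.39 and Col20a1 at 7.26, recurrent 4 highest for Col22a1 at 6.05, and recurrent 2 lowest for Col14a1 at 4.21. ATC 4 was highest of its group for Loxl1 at 11.85, Col4a2 at 12.14 and Col8a1 at 12.76. PTC 1 was highest for Col15a1 at 8.53 and Col26a1 at 5.02 and lowest for Col4a6 at 8.67. Normal pool 5 was highest for Col4a1 at 11.70 and Col17a1 at 5.23 and lowest for Col11a1 at 3.56.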

How the results depend on the processing

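In the fit of the 2 groups alone, PTC against normal pools had 21 members higher and 6 lower, where 21.3% and 24.5% of all genes were called, and ATC against PTC 18 and 8, beside 17.4% and 19.6%. ATC against normal pools had 8 lower there, beside 28.2% of all genes, and recurrent tumours against ATC 1 lower, beside 0.742%. With array weights PTC against normal pools had 21 and 6, beside 24.5% and 26.9% of all genes, and ATC against PTC 19 and 8, beside 23.1% and 27.9%. The members lower than in normal pools were then 9 in ATC, beside 33.5%, and 10 in recurrent tumours, beside 27.9%. ATC against PTC had 6 higher with a block by title series, with a block by bare-number titles and on arrays with JK alone, beside 6.83%, 7.38% and 7.29% of all genes. It had 3 lower without genes below the lower quartile of mean level, where fewer members were tested. On arrays without JK, with fewer samples, recurrent tumours had 3 higher and 2 lower than normal pools, beside 0.936% and 3.12% of all genes, and ATC 9 and 2, beside 2.21% and 3.91%. Recurrent tumours had 0 lower than ATC there by limma, beside 0.323%. On arrays with JK alone 8 were lower in recurrent tumours than in normal pools, beside 22.2%. Leaving out each array in turn gave 5 to 9 higher in PTC against normal pools, 5 to 10 higher and 3 to 5 lower in ATC against PTC, 1 to 4 lower in recurrent tumours against ATC and 5 to 9 lower in recurrent tumours against normal pools. The shares of all genes are given in the Results for the arrays named there.

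Of 1810 values for 89 gene results under the alternatives, 1615 kept direction and side of the threshold, 175 lost the call, 12 gained it and 8 changed sign. Col2a1, called in no comparison with all arrays, turned to 0.3043 in PTC against normal pools with the title block, and to -0.3141 in ATC against normal pools and -0.3068 in ATC against PTC with the bare-number block. It was -0.0354 in ATC against PTC with the title block. Leaving out 1 array gave -0.1024 to 0.1762 for Col2a1 in PTC against normal pools. Col5a3 in recurrent tumours against ATC was 0.1099 on JK arrays. The cause was not tested for these changes. No paired analysis was possible because the replicates were numbered in record order and the labels pair no samples. The number of arrays, not depth, limits the precision.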
